A study of Mus musculus with 6 samples.

Results

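The 8 genes described here are Bdnf, Ntf3, Ntrk2, Ntrk3, Ngfr, Sort1, Vgf and Nrn1, the neurotrophin signalling genes of the hippocampus together with a pair of genes for secreted or surface growth factors that neurons make. They were chosen by symbol, with earlier results of these data known, out of 56941 gene identifiers in a table of read counts. All 8 matched 1 identifier each and had enough counts to be tested. The counts come from poly(A) RNA taken from ventral hippocampi, with 3 mice in the group labelled NEGR1 overexpression and 3 in the group labelled NEGR1 control, and 1 library a mouse. NEGR1 is a neuronal cell adhesion molecule, and the study asked what its overexpression does to memory and to behaviour related to anxiety and depression. The sources used here do not give the means of overexpression, the treatment of the controls, or the strain, age and sex of the mice. Total counts ran from 30726110 to 38108394 a library. Values below are CPM, which are counts scaled to a common library size with TMM factors.

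Neurotrophins are small secreted proteins that keep neurons alive and shape their synapses. BDNF acts through the receptor tyrosine kinase TrkB, the product of Ntrk2, and neurotrophin-3, from Ntf3, acts through TrkC, from Ntrk3. The precursor forms bind the p75 receptor, from Ngfr, together with sortilin, from Sort1, which also sorts BDNF inside the cell. In the hippocampus BDNF is made mainly by excitatory neurons, rises with their activity and is needed for lasting changes in synaptic strength. Truncated TrkB lacks the kinase and is made by astrocytes, so Ntrk2 transcripts come from neurons and glia.

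For none of the 8 genes was a difference between overexpression and control libraries beyond the spread between mice detected. In edgeR's quasi-likelihood test 0 of 8 passed an adjusted p of 0.05, where 9 of 19354 tested genes, or 0.0465%, did. Likewise 0 of the 8 had an unadjusted p under 0.05, against 9.24% of tested genes, and DESeq2 and limma also called 0 of them. The smallest adjusted p among the 8 was 0.716, for Vgf. Their log2 fold changes ran from -0.06 for Nrn1 to 0.27 for Ngfr with a median of 0.021, beside 0.001 over all genes tested. They were above 0 in 6 genes and below 0 in 2. Negr1 itself was at 185, 199 and 195 CPM in the overexpression libraries and 181, 168 and 180 CPM in the control libraries. Its fold was 1.09 (95% interval 1.01 to 1.185), with an unadjusted p of 0.0309 and an adjusted p of 0.488 in the same test. The groups did not overlap, as was so for 15.1% of all tested genes. The counts thus showed no more than a small rise in Negr1 RNA, which did not pass.

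**Figure D1:**
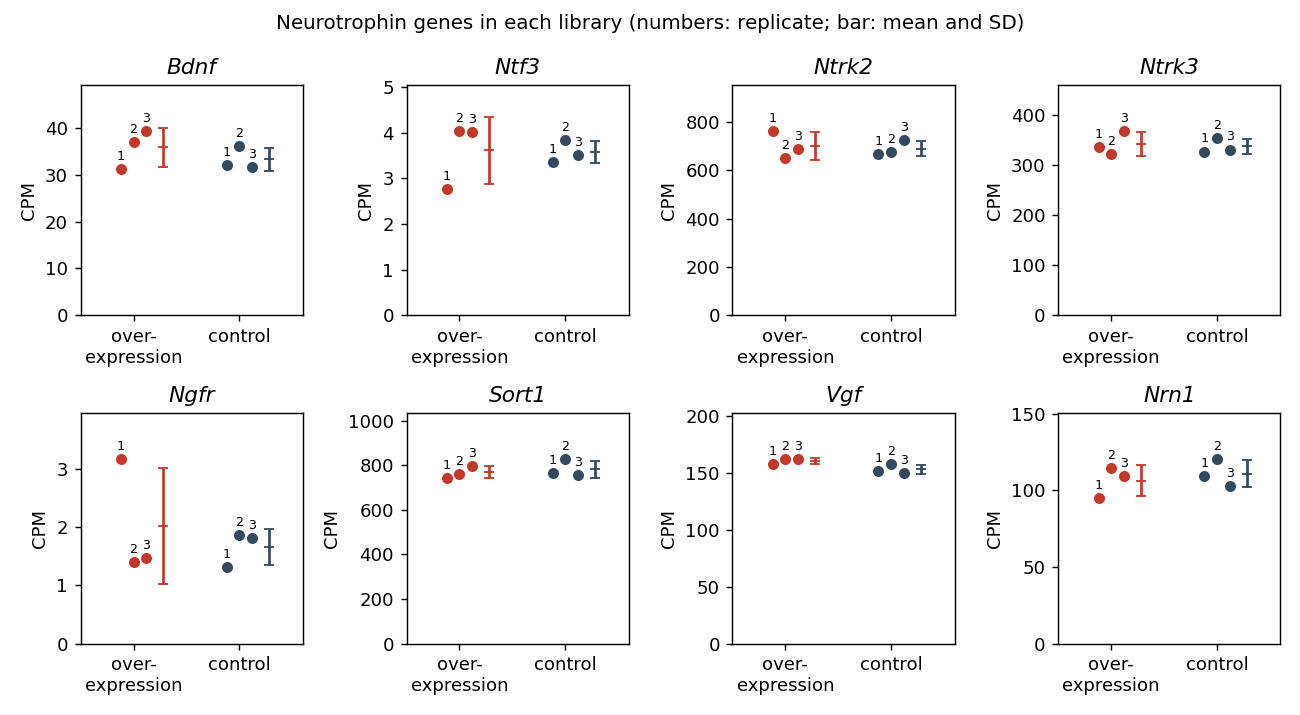
CPM of each of the 8 genes in overexpression replicates 1 to 3 (red) and control replicates 1 to 3 (dark blue), on linear axes that start at 0, with the mean and SD (n = 3) beside the points. The groups overlap for 7 genes, the Vgf groups meet at 157.7 CPM, and overexpression replicate 1 stands apart for Ngfr at 3.16 CPM.

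One overexpression library stood apart in the level of choroid plexus markers, and the overexpression libraries were spread widely in dentate granule cell markers. The summed level of 6 choroid plexus markers was 724.5 CPM in overexpression replicate 1, 46.5 CPM in replicate 2 and 67.9 CPM in replicate 3. In the control libraries it was 23.4 to 47.8 CPM. Ttr made up most of the sum in overexpression replicate 1, at 639.9 CPM, and each of the 6 markers was highest in that library. The summed level of 5 dentate granule cell markers, Prox1, Dsp, C1ql2, Lct and Tdo2, was lowest in overexpression replicate 1, at 133.8 CPM. It was 285.5 and 237.8 CPM in overexpression replicates 2 and 3, both above the control range of 169.9 to 218.2 CPM. Each of 13 marker lists, for neurons, hippocampal subfields, glia, vessels, meninges and choroid plexus, had 0 markers without counts. Prox1 of the dentate gyrus lay between 68.2 and 137 CPM over the 6 libraries and Fibcd1 of CA1 between 159.8 and 203.3 CPM, so markers of both subfields were detected. In bulk tissue, fewer cells of a type and less RNA per cell cannot be told apart.

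Bdnf (ENSMUSG00000048482, chromosome 2) is transcribed from several promoters that respond to different signals. A known activity-regulated one carries a cyclic AMP response element (CRE), the site of the transcription factor CREB, close to its start. The deposited counts sum over all promoters, so they do not say which one was in use. Below are the 250 bases upstream of that Bdnf start (GRCm38.p6, chr2:109692186-109692435, + strand), shown for its CRE half-site, and of the Ntrk2 start (GRCm38.p6, chr13:58806319-58806568, + strand), shown to set the receptor beside its ligand. Both are from RefSeq, 5′ to 3′, with the CRE half-site CGTCA in capitals.
Bdnf: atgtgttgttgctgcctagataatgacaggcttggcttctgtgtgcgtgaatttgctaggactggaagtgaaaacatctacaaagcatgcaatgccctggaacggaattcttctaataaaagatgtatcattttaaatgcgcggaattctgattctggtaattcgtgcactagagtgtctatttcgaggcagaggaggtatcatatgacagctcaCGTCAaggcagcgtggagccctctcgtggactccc
Ntrk2: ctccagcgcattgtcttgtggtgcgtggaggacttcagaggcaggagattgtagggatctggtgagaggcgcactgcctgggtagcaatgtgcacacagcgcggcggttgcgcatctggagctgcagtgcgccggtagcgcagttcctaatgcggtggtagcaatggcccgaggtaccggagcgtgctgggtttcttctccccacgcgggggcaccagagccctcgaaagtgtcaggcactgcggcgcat

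The half-site begins 35 bases before the start of transcription in the Bdnf window. Windows were present for Bdnf (7 of them), Ntf3, Ngfr and Ntrk2, 11 in all. The half-site, searched as TGACG or CGTCA to cover both strands, was in 1 of the 11 and in 17.8% of all 32851 windows of the same length. The full CRE, TGACGTCA, which contains it, was in 0 of the 11 and in 1.55% of all windows. The E-box CACGTG was in 1 of the 11, upstream of an Ntf3 start, and in 6.02% of all windows, and the EGR motif GCGGGGGCG was in 0 of the 11 and in 2.57% of all. The Bdnf window shown has a GC content of 45.6% and the Ntrk2 window 62.8%.

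Among the ligands, Bdnf was measured well and its groups overlapped. It stood at 31.3, 36.9 and 39.3 CPM in overexpression replicates 1 to 3, from 1049, 1262 and 1417 counts, and at 32.1, 36.1 and 31.6 CPM in control replicates 1 to 3, from 1030, 1357 and 964 counts. Overexpression replicates 2 and 3 held the highest levels of the 6 and overexpression replicate 1 the lowest. The fold of overexpression over control was 1.08 (95% interval 0.947 to 1.22), and the adjusted p in edgeR's test was 0.741. Without overexpression replicate 1 the log2 fold change was 0.19 in place of 0.11 (unadjusted p = 0.024, adjusted p = 0.327 in edgeR's test), and without overexpression replicate 3 it was 0.038.

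Ntf3 (ENSMUSG00000049107, chromosome 6), the ligand of TrkC, had few counts and a wide error. It was at 2.77, 4.04 and 4.02 CPM in the overexpression libraries and at 3.36, 3.83 and 3.51 CPM in the control libraries. Here too overexpression replicate 1 was the lowest of the 6 and replicates 2 and 3 were the highest. The fold of overexpression over control was 1.01 (95% interval 0.777 to 1.32; edgeR adjusted p = 0.988).

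Ntf5, which encodes neurotrophin-4, another ligand of TrkB, had 1 to 8 counts in an overexpression library and 1 to 3 in a control library and was not tested.

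Both Trk receptor genes were abundant and nearly level between groups. Ntrk2 (ENSMUSG00000055254, chromosome 13) was at 762, 649 and 690 CPM in the overexpression libraries and at 668, 676 and 724 CPM in the control libraries. The highest and the lowest of the 6 values were both in overexpression libraries, replicates 1 and 2. Its fold was 1.02 with a 95% interval of 0.927 to 1.11 (edgeR adjusted p = 0.943). Gene counts cannot separate full-length TrkB from the truncated form, so a shift between them would not show here. The summed level of 6 astrocyte markers was 5463 to 5983 CPM in overexpression libraries and 5405 to 6027 CPM in control libraries, and Slc1a2, a glutamate transporter gene, made up most of it. Within that list Gfap, the gene of an astrocyte filament protein, singled out after its values were seen, was at 338, 328 and 401 CPM in overexpression libraries and 465, 525 and 534 CPM in control libraries. Its groups did not overlap, and its log2 fold change of -0.51 ± 0.080 (SE) did not pass, at an adjusted p of 0.0862 in edgeR's test. Of the 6 astrocyte markers 2 had a fold above 1, and the part of astrocytes in the Ntrk2 value was not tested.

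Ntrk3 (ENSMUSG00000059146, chromosome 7), which also has full-length and truncated forms, was at 337, 323 and 369 CPM in the overexpression libraries. The control libraries had 328, 355 and 332 CPM, within that range. The fold of overexpression over control was 1.01 (95% interval 0.929 to 1.11; edgeR adjusted p = 0.950).

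**Figure D2:**
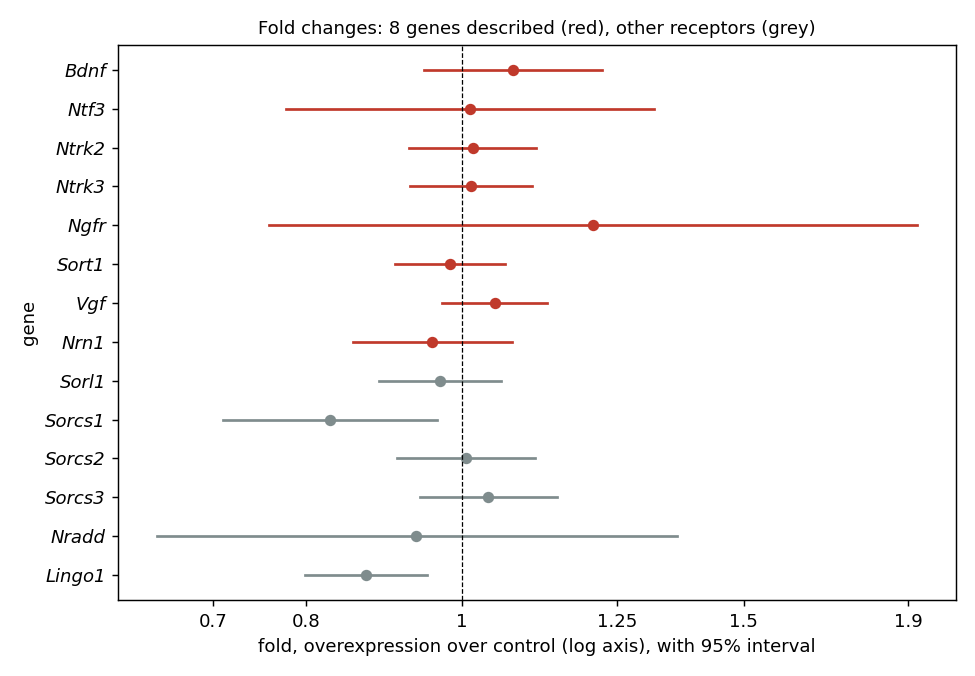
Fold of overexpression over control (log axis) with its 95% interval from edgeR's fit for the 8 genes (red) and other tested receptors and co-receptors (grey). All 8 red intervals include 1, and that of Ngfr, 0.758 to 1.93, is the widest of the 8; the grey intervals of Sorcs1 and Lingo1 lie below 1.

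Ngfr (ENSMUSG00000000120, chromosome 11), the p75 receptor, was low and carried by 1 library. It was at 3.16, 1.40 and 1.47 CPM in the overexpression libraries, from 106, 48 and 53 counts, and at 1.31, 1.86 and 1.80 CPM in the control libraries, from 42, 70 and 55 counts. Overexpression replicate 1 was the highest of the 6, and the other overexpression libraries lay inside the control range. The log2 fold change was 0.27 ± 0.31 (SE; edgeR adjusted p = 0.830), and without that library it was -0.21 (adjusted p = 0.812). That same library had the high choroid plexus marker sum of 724.5 CPM, and its sum of 6 fibroblast and meninges markers was 123.5 CPM, against 121.8 and 96.8 CPM in overexpression replicates 2 and 3 and 69.4 to 111.0 CPM in control libraries. The part of these tissues in the Ngfr value was not tested.

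Sort1 (ENSMUSG00000068747, chromosome 3), the sortilin gene, had the highest level per length of the 8. It was at 745, 762 and 798 CPM in the overexpression libraries and at 764, 827 and 754 CPM in the control libraries. These ranges overlapped, with a fold of 0.983, a 95% interval of 0.909 to 1.06 and an edgeR adjusted p of 0.923. Of its relatives in the sortilin family, Sorl1 averaged 446.6 ± 19.7 CPM in overexpression libraries and 460.8 ± 31.5 CPM in control libraries (SD, n = 3 each). Sorcs2 averaged 83.6 ± 6.896 CPM with overexpression against 83.1 ± 3.81 CPM in controls, and Sorcs3 51.2 ± 3.46 CPM with overexpression against 49.2 ± 2.65 CPM in controls. The edgeR adjusted p-values of these 3 genes were 0.858, 0.983 and 0.840.

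A pair of receptor-related genes had groups that did not overlap, and neither passed. Sorcs1, a sortilin relative that sorts receptors in neurons, was at 16.0, 12.1 and 14.9 CPM in the overexpression libraries and 16.6, 17.4 and 17.9 CPM in the control libraries. Lingo1, a co-receptor of p75 at the neuronal surface, was at 205.3, 199.9 and 191.5 CPM in overexpression libraries and 216.0, 245.9 and 222.7 CPM in control libraries. Their log2 fold changes were -0.27 ± 0.10 and -0.20 ± 0.059 (SE), with unadjusted p-values of 0.0195 and 0.00448 and adjusted p-values of 0.456 and 0.348 in edgeR's test. Groups failed to overlap for 2 of the 13 tested ligands, receptors and co-receptors, or 15.4%, near the 15.1% of all tested genes. An unadjusted p under 0.05 was likewise found for 15.4% of that list, against 9.24% of all tested genes. Among the 8 genes, groups failed to overlap for 1, Vgf. Nradd, a p75-like death domain gene, averaged 1.15 ± 0.203 CPM in overexpression libraries and 1.23 ± 0.145 CPM in control libraries (SD, n = 3 each; edgeR adjusted p = 0.943).

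Vgf (ENSMUSG00000037428, chromosome 5) encodes a granule protein that BDNF induces in neurons and that is cut into active peptides. It had the smallest spread of the 8, with a within-group SD of 0.032 on the log2 scale, and 2.5% of tested genes had a smaller one. It was at 157.7, 161.8 and 162.0 CPM in the overexpression libraries and at 151.8, 157.7 and 149.6 CPM in the control libraries. The overexpression values lay at or above every control value, and the lowest of them equalled the highest control value at this rounding. The fold of overexpression over control was 1.05 (95% interval 0.973 to 1.13), and the adjusted p in edgeR's test was 0.716. Over the 6 fits that each left out 1 library the log2 fold change of Vgf stayed between 0.052 and 0.090, with no adjusted p below 0.607.

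Nrn1 (ENSMUSG00000039114, chromosome 13) encodes neuritin, a small protein on the neuronal surface that neurotrophins and activity induce and that promotes neurite growth. It was at 94.9, 114.6 and 109.2 CPM in the overexpression libraries and at 109.3, 120.2 and 102.8 CPM in the control libraries. Overexpression replicate 1 was again the lowest of the 6. The fold of overexpression over control was 0.959 (95% interval 0.856 to 1.08; edgeR adjusted p = 0.854). An exon of Fars2, on the opposite strand, overlaps Nrn1 in the GENCODE M21 annotation and that gene had 1906 counts in the 6 libraries together. Since the sources used here do not give the strand setting of the counting, reads from that overlap cannot be assigned with certainty. The same holds for Gm45346 at Bdnf, with 17 counts, and Gm12523 at Sort1, with 11.

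Levels of the 8 genes differed far more between genes than between libraries. Per kilobase of annotated exon the median over the 6 libraries was 100.8 CPM for Sort1, 53.1 for Vgf, 48.6 for Nrn1, 35.4 for Ntrk2, 11.1 for Ntrk3, 5.48 for Bdnf, 2.14 for Ntf3 and 0.475 for Ngfr. Neighbours in this order had ranges over the libraries that did not overlap, except Vgf at 50.3 to 54.5 and Nrn1 at 42.2 to 53.4 CPM per kilobase. Sort1 stood above 98.7% of tested genes on this scale, Bdnf above 61.1% and Ngfr above 17.2%. The Trk genes have many long alternative ends, which lowers their value on this scale. With the length of the longest transcript in its place, a choice made after the data were seen, Ntrk2 was second at 78.1 CPM per kilobase, followed by Nrn1 at 61.4 and Vgf at 55.7, so Nrn1 and Vgf also changed places. The other genes kept their ranks. Both Trk receptors thus stood above both of their ligands on either length, at the level of RNA.

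The order of the libraries by Bdnf was close to their order by dentate granule cell markers, a likeness noticed after the values were seen. From low to high, the libraries fell in the order overexpression replicate 1, control replicates 3, 1 and 2, and overexpression replicates 2 and 3 for Bdnf. For the summed dentate markers the order was the same, except that overexpression replicates 3 and 2 changed places. The start of this order was not particular to dentate markers. The summed CA2 and CA3 markers also rose from overexpression replicate 1 (194 CPM) through control replicates 3 (204.3 CPM) and 1 (214.1 CPM), with the other libraries above. The summed CA1 markers were instead highest in overexpression replicate 1, at 967.8 CPM. Dentate granule cells are among the hippocampal neurons known to make Bdnf and Ntf3. Overexpression replicate 1 stood at -0.58 from the mean of the 6 libraries on the log2 scale for the dentate marker sum, at -0.36 for Ntf3, at -0.19 for Nrn1 and at -0.14 for Bdnf. Sort1 was also lowest in that library, at 745 CPM. The likeness to Bdnf was one of order and not of size, as overexpression replicate 2 stood at 0.518 for the dentate marker sum and at 0.101 for Bdnf. With 6 libraries this is a description, and the part of dentate tissue in the values was not tested.

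**Figure D3:**
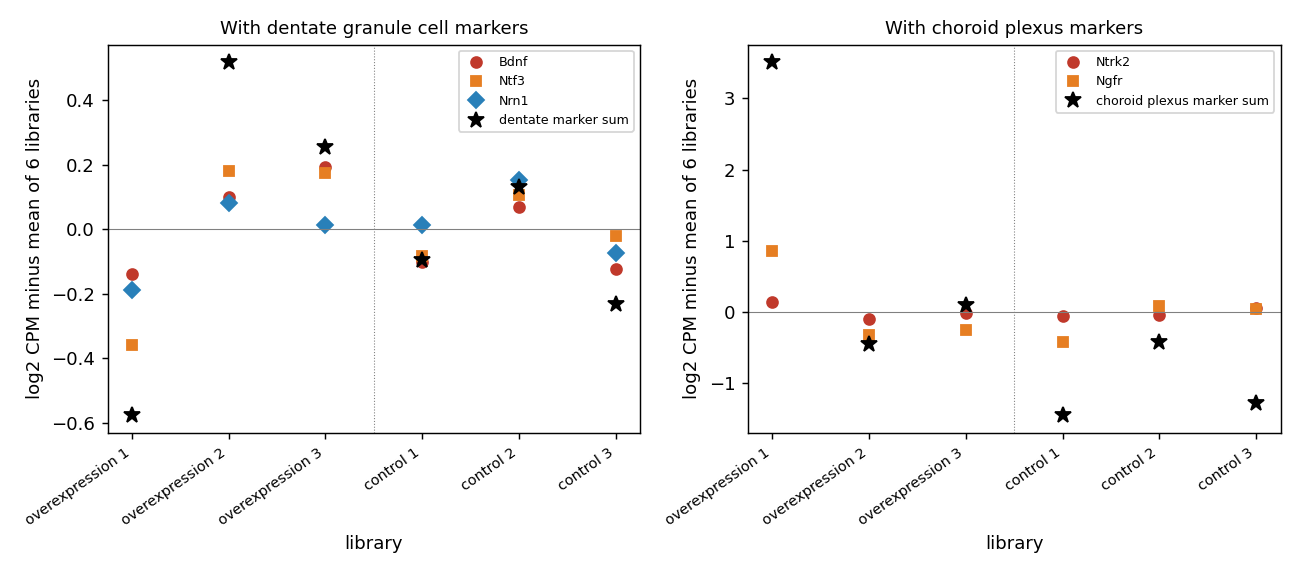
Log2 CPM minus the mean of the 6 libraries, for overexpression replicates 1 to 3 and control replicates 1 to 3. Left, Bdnf, Ntf3 and Nrn1 with the sum of dentate granule cell markers (stars), where overexpression replicate 1 is lowest for all; right, Ntrk2 and Ngfr with the sum of choroid plexus markers (stars), where that library is highest for all.

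The genes with levels most like those of Bdnf across the 6 libraries were sought among 10210 other tested genes averaging at least 10 CPM. Likeness was the root mean square distance between log2 profiles, each centred on its own mean. The 5 closest were Ppp3r1, the regulatory subunit of calcineurin, at a distance of 0.017, Lyst at 0.018, Sms-ps, a pseudogene whose reads may belong to Sms, at 0.020, D16Ertd472e at 0.020 and Lsm8 at 0.022. Bdnf itself varied by 0.126 around its mean on the same measure. Ppp3r1 was at 710, 833 and 880 CPM in overexpression libraries and 722, 835 and 728 CPM in control libraries.

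The wider pathway was read from 6 lists of genes. Of the 13 tested ligands, receptors and co-receptors, 0 passed, and 7 had a fold above 1 and 6 below. Their median log2 fold change was 0.009. In the signal transduction list, which holds adaptors and kinases downstream of the receptors, 0 of 38 passed, 13 were above 1 and 25 below, and the median was -0.026. Among its smallest p-values were those of Maged1, a p75 adaptor, Gab1, a docking protein, and the kinase Rps6ka1. Maged1 averaged 586 ± 23.7 CPM in overexpression libraries and 653 ± 21.2 CPM in control libraries, and Gab1 29.2 ± 1.87 CPM with overexpression against 35.2 ± 4.85 CPM in controls (SD, n = 3 each; edgeR adjusted p = 0.402 and 0.423). Rps6ka1 averaged 12.9 ± 0.551 CPM with overexpression against 14.4 ± 0.707 CPM in controls (edgeR adjusted p = 0.623).

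**Figure D4:**
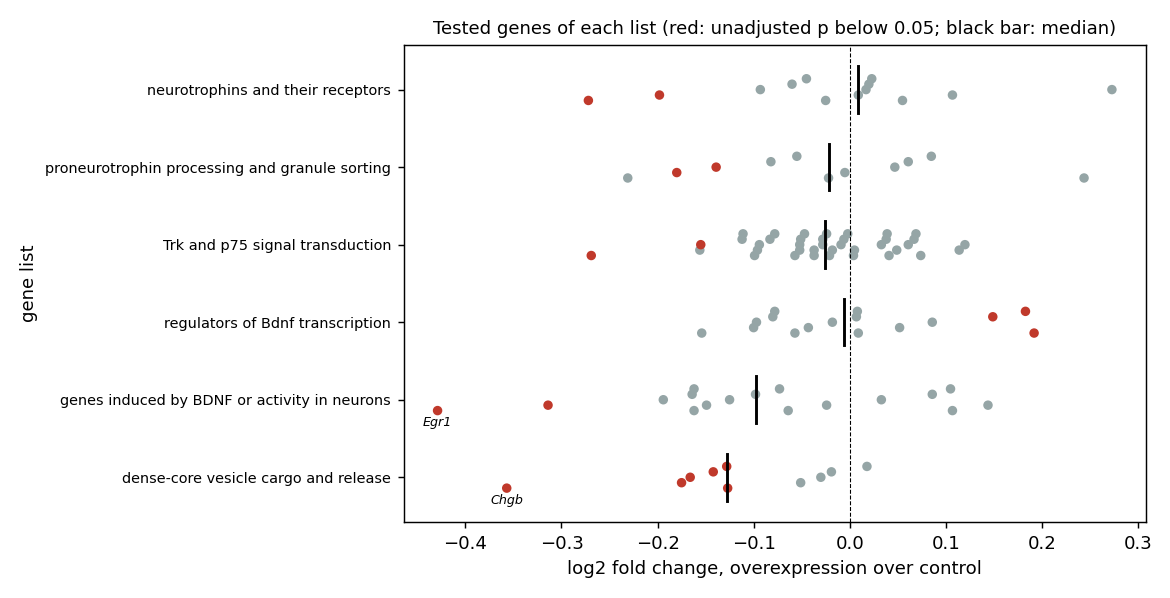
Log2 fold changes of overexpression over control for the tested genes of 6 lists, with the median of each list as a black bar and genes with an unadjusted p under 0.05 in red. Medians lie between -0.128 and 0.009, and the list of dense-core vesicle genes is the lowest, with Chgb at -0.36.

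Genes that act before the receptor gave a similar picture. In the processing and sorting list 0 of 11 tested genes passed, 4 were above 1 and 7 below, around a median of -0.022 on the log2 scale; Plg and Mmp3, with 0 to 5 counts in a library, were not tested. The proprotein convertase Pcsk6 averaged 23.9 ± 2.11 CPM with overexpression against 27.1 ± 0.638 CPM in controls, and Pcsk2 235 ± 0.872 CPM with overexpression against 258.7 ± 21.8 CPM in controls (SD, n = 3 each; edgeR adjusted p = 0.494 and 0.500). Plat, the tissue plasminogen activator that helps to release mature BDNF, averaged 44.7 ± 3.83 CPM with overexpression against 47.3 ± 1.27 CPM in controls (SD, n = 3 each). Serpini1, which inhibits it, averaged 201 ± 12.8 CPM with overexpression against 193 ± 5.89 CPM in controls (edgeR adjusted p = 0.783, and 0.748 for Plat).

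Of 16 regulators of Bdnf transcription 0 passed, 8 were above 1 and 8 below, around a median log2 fold change of -0.005. An unadjusted p under 0.05 was found for 3 of them, or 18.8%, against 9.24% of all tested genes. These were Mef2c, Creb1 and Cacna1c, each with a fold above 1. Creb1, whose product binds CREs, was at 73.8, 67.4 and 83.4 CPM in overexpression libraries and 63.3, 69.1 and 65.4 CPM in control libraries (edgeR adjusted p = 0.480). Those groups overlapped by 1 library. Mef2c, an activity-dependent transcription factor, averaged 148 ± 12.2 CPM with overexpression against 129 ± 6.48 CPM in controls, and its relative Mef2d 244 ± 7.88 CPM with overexpression against 261 ± 5.87 CPM in controls (SD, n = 3 each). Cacna1c, an L-type calcium channel gene, averaged 215 ± 19.8 CPM with overexpression against 194 ± 1.75 CPM in controls. Their edgeR adjusted p-values were 0.418, 0.588 and 0.497.

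Among genes that BDNF or activity induces, 0 of 17 passed, 5 were above 1 and 12 below. The share below 1 was 70.6%, against 49.6% of all tested genes, and the median was -0.098 on the log2 scale. Overexpression replicate 3 stood apart on this list: it was the highest of the 6 libraries for 12 of the 17 genes, while overexpression replicates 1 and 2 were the lowest for 7 each. The early gene Fos, for example, was at 6.09, 5.88 and 14.8 CPM in overexpression libraries and 9.72, 10.4 and 8.53 CPM in control libraries. Without overexpression replicate 3, 1 gene was above 1 and 16 below, with a median of -0.214. In that fit 9 genes had an unadjusted p under 0.05 in edgeR's test, against 2 with all libraries. Those 2 were 11.8% of the list, beside 9.24% of all tested genes. The share over all genes without that library is not given here. Without overexpression replicate 1 or 2 the list was near even, with 8 above 1 and 9 below and medians of -0.002 and -0.001. Egr1, an early transcription factor, was at 79.4, 67.0 and 96.7 CPM in overexpression libraries and 101.0, 121.4 and 104.8 CPM in control libraries, so the groups did not overlap. Its log2 fold change was -0.43 ± 0.14 (SE), with an adjusted p of 0.456 in edgeR's test and 0.0171 in DESeq2's Wald test. The related Egr4, the neuropeptide gene Npy and the phosphatase gene Dusp5 also had groups that did not overlap. Their log2 fold changes were -0.31, -0.16 and -0.16, with edgeR adjusted p-values of 0.460, 0.597 and 0.608. In all, groups failed to overlap for 4 of the 17 genes, or 23.5%, against 15.1% of all tested genes. Arc, a synaptic early gene, was at 63.2, 69.8 and 132.5 CPM in overexpression libraries and 101.3, 92.6 and 110.2 CPM in control libraries. Overexpression replicate 3 was the highest of the 6. With all libraries the log2 fold change of Arc was -0.19, at an adjusted p of 0.910 in edgeR's test. Without that library it was -0.605 and passed (edgeR adjusted p = 0.0207). Arc was singled out after its values were seen, and the library left out was its highest, so nothing is concluded from this pass.

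BDNF is stored in dense-core vesicles, and the listed genes for the cargo and membrane of these vesicles were on the low side without passing. Of 10 such genes 9 had a fold below 1, where 49.6% of all tested genes did, and their median was -0.128 on the log2 scale. An unadjusted p under 0.05 was found for 6 of the 10, against 9.24% of all tested genes, and 0 passed in edgeR's test. Chgb, the granule protein chromogranin B, was at 472, 453 and 513 CPM in overexpression libraries and 589, 704 and 548 CPM in control libraries. All 3 overexpression values lay below the control values, at a log2 fold change of -0.36 ± 0.088 (SE) and an adjusted p of 0.299 in edgeR's test and 0.00754 in DESeq2's Wald test. Scg5, Chga and Ptprn, a granule chaperone, chromogranin A and a granule membrane protein, averaged 115 ± 5.64, 95.9 ± 5.89 and 498 ± 8.91 CPM in overexpression libraries. In control libraries they averaged 129 ± 5.40, 108 ± 3.45 and 544 ± 12.4 CPM (SD, n = 3 each; edgeR adjusted p = 0.401, 0.423 and 0.447). Vgf, a cargo of the same granules, was at a log2 fold change of 0.069, above 0, and Bdnf was at 0.107. In the processing and sorting list, 4 tested genes were above 1 and 7 below, with Pcsk1 at 0.047, Cpe at -0.005 and Pcsk2 at -0.139. The vesicle list was drawn up with earlier results of these data known, so its shares are a description.

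Beside these vesicle genes stood a lower sum of general neuron markers, while markers of single neuron types were not lower together. The summed level of Rbfox3, Snap25, Syt1, Tubb3 and Eno2 was 4446 to 4596 CPM in overexpression libraries and 4639 to 5042 CPM in control libraries, without overlap. Snap25 and Syt1 made up most of this sum. All 5 markers had a fold below 1, where 49.6% of all tested genes did, and 0 passed. Only Eno2 had groups that did not overlap (edgeR adjusted p = 0.537), and such groups were found for 15.1% of all tested genes. The sums of the CA1, CA2 and CA3, dentate and interneuron lists overlapped between groups. Of their markers 1 of 5, 3 of 5, 5 of 5 and 3 of 6 had a fold above 1. The sum of 6 myelin markers also did not overlap, at 2948 to 3483 CPM in overexpression libraries and 3707 to 4655 CPM in control libraries. The part of neuron content in the vesicle gene values was not tested. Over the 6 fits that each left out 1 library, 8 or 9 of the 10 genes stayed below 1, with medians of -0.134 to -0.113, and 3 to 6 of them had an unadjusted p under 0.05.

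**Figure D5:**
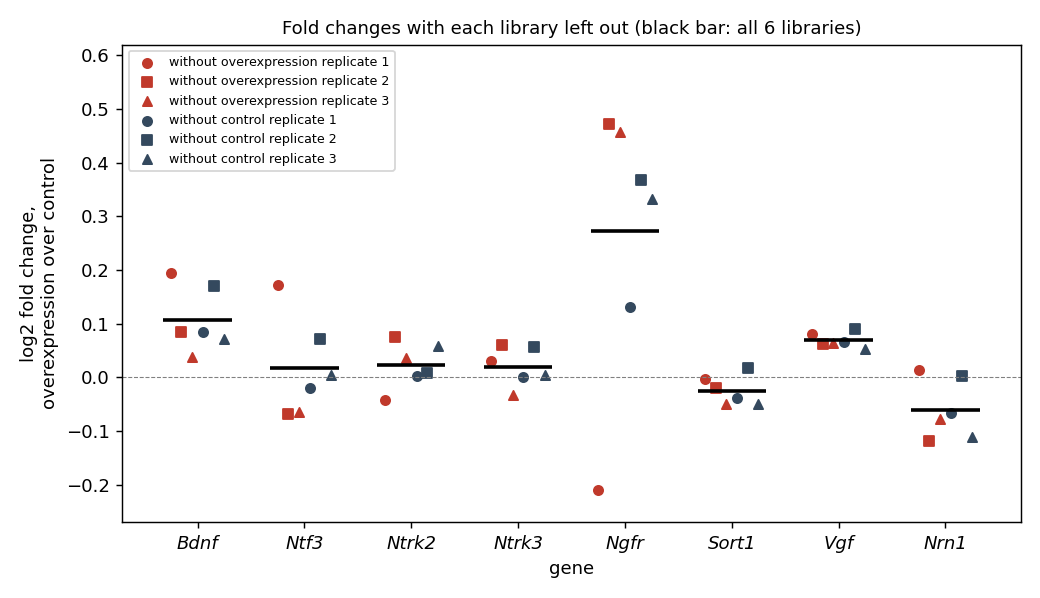
Log2 fold change of overexpression over control for each of the 8 genes with all 6 libraries (black bar) and with 1 library left out (red, an overexpression library; dark blue, a control library). Bdnf and Vgf stay above 0 in all 6 fits, and Ngfr reaches -0.21 without overexpression replicate 1.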

How the data were processed

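The authors deposited 1 table of raw counts for each Ensembl gene, with a column for each of the 6 libraries; the number of sample columns not used was 0. Poly(A) RNA was made into strand-specific libraries, per the labels' protocols. The submitters' processing notes list Trimmomatic 0.36, STAR 2.7.10, featureCounts 2.0.3 and the builds mm10 and GRCm39 without saying which did what. Annotation release and strand setting: not given in the sources used here; a wrong setting would lower counts.

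Symbols came from a list of gene identifiers and exon lengths from GENCODE M21, whose release may differ from the authors'. The main test was the quasi-likelihood test of edgeR 4.0.16 (robust, R 4.3.3) with TMM factors, its default low-count filter and group alone in the model. Benjamini-Hochberg adjustment ran over the 19354 genes tested, the threshold was 0.05, and SEs and intervals were derived from the F statistic. Alternatives were DESeq2 1.42.0, limma 3.58.1 (voom), other scaling, no filter, 1 CPM in 3 libraries, a replicate block, and each library left out. On simulated counts (19043 genes tested) the test called 25% of 48 genes changed 1.25-fold. It called 68% of 50 genes at 1.5-fold, 79.6% of 49 at 2-fold and 13 of 18849 unchanged genes.

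The genes and lists were chosen with earlier results of these data known. Named genes were the ligands and receptors, pathway genes past the threshold, the 4 smallest p-values in each other list and the 5 genes most like Bdnf; Arc, Fos and Gfap were singled out after their values were seen, and a few genes that this rule names are not reported here. Chi-square per degree of freedom between libraries was 4.29 to 12.9, so no pair agreed within sampling noise.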

Additional observations from a re-analysis of the deposited data

How the results depend on the processing

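Of the 8 genes, 0 passed in any of the 13 alternative fits, and 94 of 104 fold changes kept their direction. The cause of the 10 reversals was not tested: Ntf3 was at -0.002 on the log2 scale with limma voom, -0.069 and -0.065 without overexpression replicates 2 and 3 and -0.020 without control replicate 1. Without overexpression replicate 1, Ntrk2 was at -0.043, Ngfr at -0.209 in place of 0.273, and Nrn1 at 0.013. Ntrk3 was at -0.033 without overexpression replicate 3, and without control replicate 2 Sort1 was at 0.017 and Nrn1 at 0.002. Over the 6 fits without 1 library each, the range was -0.069 to 0.172 for Ntf3, -0.043 to 0.075 for Ntrk2, -0.033 to 0.060 for Ntrk3, -0.209 to 0.473 for Ngfr, -0.050 to 0.017 for Sort1 and -0.118 to 0.013 for Nrn1. The count of genes past the threshold, 9 of all genes, was 304 with no filter, 103 with DESeq2, 5 with the stricter filter, 5 with limma voom and 2 to 63 with 1 library left out (2 without control replicate 2, 63 without overexpression replicate 1). Pathway list genes past the threshold, 0 in the main test, numbered 3 with no filter (Chgb, Gab1 and Egr1), 2 with DESeq2 (Chgb and Egr1) and 0 to 1 with 1 library left out (Arc, without overexpression replicate 3). Libraries with the same replicate number share only the number. Their deviations from the group means correlated at 0.017 to 0.026, and 5 of 6 libraries correlated best with their own number. Correlations this small do not show a pairing, and the design states none. With the replicate block 26 genes passed over all genes, and 0 of the 8 and 0 of the pathway genes. Ngfr and Ntf3 have few counts, so only large changes could have been detected in them.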
